A study of Arabidopsis thaliana and Cardamine hirsuta and Capsella rubella with 102 samples.

Results

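The genes described here are nuclear genes that encode proteins of the photosystems, their antennae and the small subunit of Rubisco. They were taken by name as the LHCA, LHCB, PSA, PSB and RBCS genes of Arabidopsis thaliana, and they number 44 of the 27416 genes in the Col-0 count table: 4 LHCA, 14 LHCB, 12 PSA, 10 PSB and 4 RBCS genes. All 44 passed the count filter in Col-0, where 20295 genes were tested, and in each of the 5 other accessions. Seedlings 12 days old were given 1 µM flg22, a peptide of bacterial flagellin that the receptor kinase FLS2 perceives, or mock treatment, and whole seedlings were harvested and pooled. The accession Col-0 and the relatives Capsella rubella, Cardamine hirsuta (Oxford) and Eutrema salsugineum (Shandong) were sampled at 1, 9 and 24 h (72 RNA-seq libraries). The other A. thaliana accessions (Gy-0, Can-0, Kon, No-0 and Kn-0) were sampled at 1 h (30 libraries). Per the study's methods, their libraries were sequenced with longer reads and on another instrument than those of Col-0 and the relatives. Genotype and sequencing therefore cannot be told apart between Col-0 and these accessions, and no test compared them. Every group had 3 replicates, each an independent experiment with flg22 and mock side by side. No mutant or transgene is part of these groups. In a pool of whole seedlings, fewer green cells and less RNA per green cell cannot be told apart.

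In the chloroplast, LHCB proteins bind chlorophyll around photosystem II and LHCA proteins around photosystem I, and both pass light energy to the reaction centres. Many PSA and PSB proteins are encoded in the nucleus and imported. PSB proteins such as PSBO, PSBP and PSBQ hold the oxygen-evolving complex in the lumen, whereas PSA proteins such as PSAD, PSAE and PSAF dock ferredoxin and plastocyanin at photosystem I. RBCS proteins join the chloroplast-encoded large subunit to form Rubisco, the enzyme that fixes carbon dioxide. Transcripts of many of these genes follow light and the circadian clock, and transcription factors of the GLK family are known to activate them.

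Of the genes described here, the 3 LHCB2 genes had the largest change between harvest times in mock seedlings. RBCS1B, RBCS2B and RBCS3B form a tandem array and changed differently between those times. The harvest times do not separate hours after treatment from time of day. Sequences from both sets are shown first. The lines below give the 250 bases upstream of the annotated start of the LHCB2 genes and of RBCS2B, from 5′ to 3′ on the gene's strand, as read from the RefSeq copy of TAIR10.1. LHCB2.1 (AT2G05100) occupies chr2:1822990-1824480 on the minus strand and LHCB2.2 (AT2G05070) chr2:1799234-1800472 on the minus strand, while LHCB2.3 (AT3G27690) lies on the plus strand at chr3:10255906-10257489. The windows are chr2:1824481-1824730, chr2:1800473-1800722, chr3:10255656-10255905 and, for RBCS2B (AT5G38420, minus strand), chr5:15382072-15382321. Capitals mark 4 motifs on either strand: the CCAAT box (CCAAT), the G-box (CACGTG), the I-box core (GATAAG, or CTTATC on the other strand) and the CCA1-binding site (AAAAATCT or AACAATCT, which none of these 4 windows holds).
LHCB2.1: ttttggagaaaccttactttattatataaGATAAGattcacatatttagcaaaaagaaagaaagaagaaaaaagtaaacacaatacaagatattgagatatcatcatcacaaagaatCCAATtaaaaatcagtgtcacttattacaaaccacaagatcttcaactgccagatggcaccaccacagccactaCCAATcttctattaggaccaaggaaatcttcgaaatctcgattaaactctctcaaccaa
LHCB2.2: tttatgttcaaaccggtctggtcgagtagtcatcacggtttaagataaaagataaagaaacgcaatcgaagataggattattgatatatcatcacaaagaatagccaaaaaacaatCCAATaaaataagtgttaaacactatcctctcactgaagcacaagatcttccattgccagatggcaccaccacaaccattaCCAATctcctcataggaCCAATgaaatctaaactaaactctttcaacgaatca
LHCB2.3: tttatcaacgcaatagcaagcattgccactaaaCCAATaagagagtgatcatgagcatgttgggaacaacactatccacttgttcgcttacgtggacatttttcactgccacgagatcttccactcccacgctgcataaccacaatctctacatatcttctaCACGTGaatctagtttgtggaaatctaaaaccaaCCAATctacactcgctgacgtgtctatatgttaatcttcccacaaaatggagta
RBCS2B: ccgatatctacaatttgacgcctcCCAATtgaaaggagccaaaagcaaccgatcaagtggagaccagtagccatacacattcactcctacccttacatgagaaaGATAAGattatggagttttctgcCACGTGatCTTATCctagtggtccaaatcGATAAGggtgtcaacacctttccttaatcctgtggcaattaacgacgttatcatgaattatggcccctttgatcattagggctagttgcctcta

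Of the 44 windows, 28 (63.6%) held a CCAAT box, against 46.0% of the windows of the same length upstream of 27443 protein-coding genes. The motif stood in 13 of 14 LHCB and all 4 LHCA windows but in 2 of 10 PSB windows. A G-box was present in 9 of 44 (20.5%), against 6.49% of all windows, an I-box core in 10 (22.7%), against 12.3%, and a CCA1-binding site in 6 (13.6%), against 8.385%. The evening element (AAAATATCT) was found in 0 of 44 windows and in 2.36% of all. The W-box core (TTGAC), to which WRKY factors bind, was in 14 (31.8%), against 44.9%. These matches describe letters in a fixed window and no factor's binding.

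RBCS1B (AT5G38430), RBCS2B and RBCS3B (AT5G38410) stand side by side on chromosome 5, and their coding sequences of 546 bases are near copies. RBCS2B differed from RBCS1B at 15 of those bases and RBCS3B at 18. The lines below show coding bases 70 to 129, counted from the start codon, with differences from RBCS1B in capitals.
RBCS1B: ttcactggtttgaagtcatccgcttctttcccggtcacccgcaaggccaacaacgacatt
RBCS2B: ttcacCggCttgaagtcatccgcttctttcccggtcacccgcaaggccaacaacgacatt
RBCS3B: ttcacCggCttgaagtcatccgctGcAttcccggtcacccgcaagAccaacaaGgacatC

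Of the 100-base windows in RBCS1B and RBCS3B transcripts, 7.47% and 12.1% recur exactly in the other gene, and for LHCB2.1 and LHCB2.2 the shares are 9.87% and 12.4%. The LHCB1 genes share 1.51% to 4.44% with each other. Levels of these genes are therefore less certain than those of the rest, for which no exact copy of that length was found. LHCB1.5 lies wholly under an antisense non-coding gene, and other members overlap a neighbour in part. The antisense overlap took 693 of 1300 exon bases in PSAH1, 595 of 1465 in LHCB2.3 and 479 of 780 in PSAG, and was shorter in the rest. How the reads of such overlaps were assigned by strand is not given in the sources used here beyond the use of default settings.

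The libraries held about 19327900 to 36897300 gene counts in the 4-species experiment and 14039800 to 28168100 in the accession experiment. All 5 flg22 marker genes examined (FRK1, WRKY29, WRKY33, PROPEP3 and PER4) were higher after flg22 in every comparison within A. thaliana. In Col-0, 3 libraries had over 25% of their reads at more than 1 place in the genome: mock 1 h replicate 2 (31.2%), mock 24 h replicate 2 (42.8%) and flg22 24 h replicate 3 (27.2%). Results for Col-0 were also computed without these 3 libraries. Below, a level is in CPM, the count relative to the library's total scaled by TMM factors, ± means SD with n = 3, fold changes are log2 values of flg22 over mock with their standard error (SE), and a gene is called higher or lower where its Benjamini-Hochberg adjusted P in edgeR's quasi-likelihood test is below 0.01. A call with an absolute log2 fold change above 1 is a differentially expressed gene (DEG). Where a count of calls under an alternative fit stands alone, the share of all genes called in that fit is not given.

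The 44 genes made up a large part of the seedlings' mRNA, and the part was smaller after flg22 at 1 and 9 h. At 1 h they took 8.36% to 10.2% of gene counts in flg22-treated Col-0 (mean 9.26% ± 0.922) and 11.5% to 13.1% in mock (12.5% ± 0.851). At 9 h the shares were 2.71% to 3.35% with flg22 and 4.14% to 4.74% in mock. In both cases the 3 flg22 libraries lay below the 3 mock libraries. By 24 h the ranges overlapped, at 4.99% to 6.42% with flg22 and 5.07% to 7.64% in mock. LHCB genes alone took 3.76% ± 0.349 with flg22 and 5.38% ± 0.648 in mock at 1 h, and 0.572% ± 0.0394 with flg22 and 0.831% ± 0.172 in mock at 9 h.

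**Figure D1:**
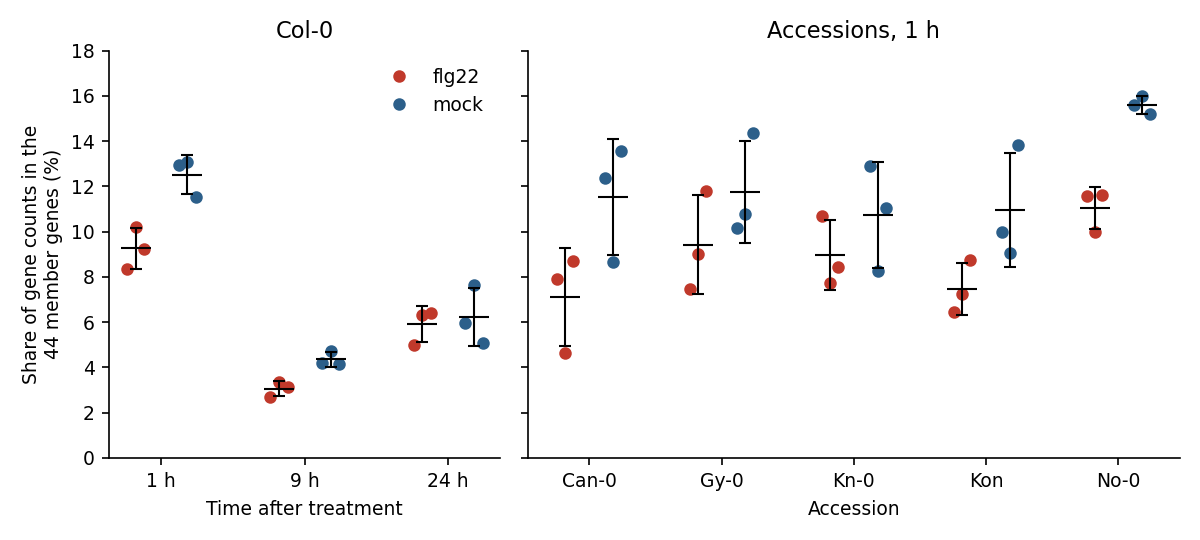
Share of all gene counts, in percent, that fell on the 44 genes, in Col-0 at 1, 9 and 24 h and in 5 accessions at 1 h; points are libraries, and bars are the mean ± SD of 3, with flg22 left of mock. The Col-0 mock mean is 12.5% at 1 h and 4.36% at 9 h, and the flg22 mean lies below the mock mean in each pair of groups.

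Per kilobase of exon, RBCS1A (AT1G67090), LHCB1.3 (AT1G29930) and LHCB1.5 (AT2G34420) had the highest levels in mock seedlings at 1 h, at 11709, 10506 and 9324 CPM per kb. LHCB1.1, LHCA4 and PSBR followed at 4487, 4409 and 4179 CPM per kb. The lowest levels per kilobase were those of RBCS1B at 391.8 CPM per kb and LHCB4.3 (AT2G40100) at 5.28 CPM per kb. The rank of RBCS1B depends on its annotated exon length, 1894 bases against 935 in RBCS2B. In mean CPM over the 18 Col-0 libraries, without regard to length, RBCS1B at 901 stood above PSBO2 at 431 and PSAE2 at 277. LHCB4.3 codes for a variant of the minor antenna protein CP29, and RBCS1B for a Rubisco small subunit like that of RBCS1A, whose level was far above it.

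In mock seedlings the genes had large changes with the hour of harvest. At 9 h against 1 h, 39 of 44 were lower and 2 higher, where 6.24% of all genes tested were lower and 8.74% higher. For 35 the change passed the DEG threshold downwards, as it did for 2.98% of all genes. The median of the 44 was -1.57 on the log2 scale and that of all genes 0.01. Leaving out 1 replicate at a time gave 30 to 40 calls. Hours after treatment and time of day cannot be told apart in this comparison.

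The decline was largest in the antenna genes. The median log2 change in mock at 9 h against 1 h was -3.77 for LHCB, -2.46 for LHCA, -1.47 for PSA, -1.06 for PSB and -0.31 for RBCS genes. LHCB2.1, which encodes a subunit of the trimeric antenna LHCII, had 27.9, 17.0 and 13.3 CPM in mock at 9 h, against 2250, 1990 and 1929 CPM at 1 h. Its log2 change was -6.73 (SE 0.30, adjusted P = 9.84e-11). LHCB2.2 and LHCB2.3, coding for near-identical LHCII subunits, changed by -6.78 and -7.17, to means of 17.6 and 5.09 CPM at 9 h, against 1933 and 742 CPM at 1 h. LHCB1.3 changed less, by -1.95, to 3404 ± 1139 CPM at 9 h, against 12922 ± 2923 CPM at 1 h. LHCB1 and LHCB2 proteins form the same trimers, and of the LHCB1 genes LHCB1.1 moved most (-4.57). LHCB3, the third LHCII subunit, changed by -4.41, and the CP29 gene LHCB4.2 (AT3G08940) by -4.34.

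None of the 4 RBCS genes was called lower at 9 h in mock. RBCS1A had 11406 ± 1258 CPM in mock at 9 h, against 14847 ± 2305 CPM at 1 h, a log2 change of -0.38 that missed the threshold (adjusted P = 0.115). RBCS1B was higher, with 1299, 1503 and 1281 CPM at 9 h, against 618, 773 and 835 CPM at 1 h (log2 change 0.89, SE 0.15, adjusted P = 0.00029). The neighbouring RBCS2B and RBCS3B had changes of -0.57 and -0.24 with adjusted P of 0.0127 and 0.251. LHCB4.3 was the other gene that rose (0.75, adjusted P = 0.00714), from a low level: its 3 libraries had 11.4, 11.5 and 16.2 CPM at 9 h, against 7.01, 7.56 and 8.36 CPM at 1 h.

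By 24 h in mock the LHCB2 genes were much closer to their levels at 1 h. At 24 h against 1 h, 39 of 44 were lower, where 9.07% of all genes were, and 29 passed the DEG threshold downwards, against 3.38% of all. The median of the 44 was -1.14 and that of all genes 0.02. Family medians lay between -0.63 for RBCS and -1.34 for LHCA. LHCB2.1 had 940, 1326 and 961 CPM, a change of -0.94 from 1 h, whereas LHCB1.4 had changed by -3.18. PSBY, PSBS, RBCS1A, RBCS1B and LHCB4.3 were not called, with changes of -0.57, -0.17, -0.47, 0.47 and 0.43. Without replicate 1 the count at 24 h was 16.

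**Figure D2:**
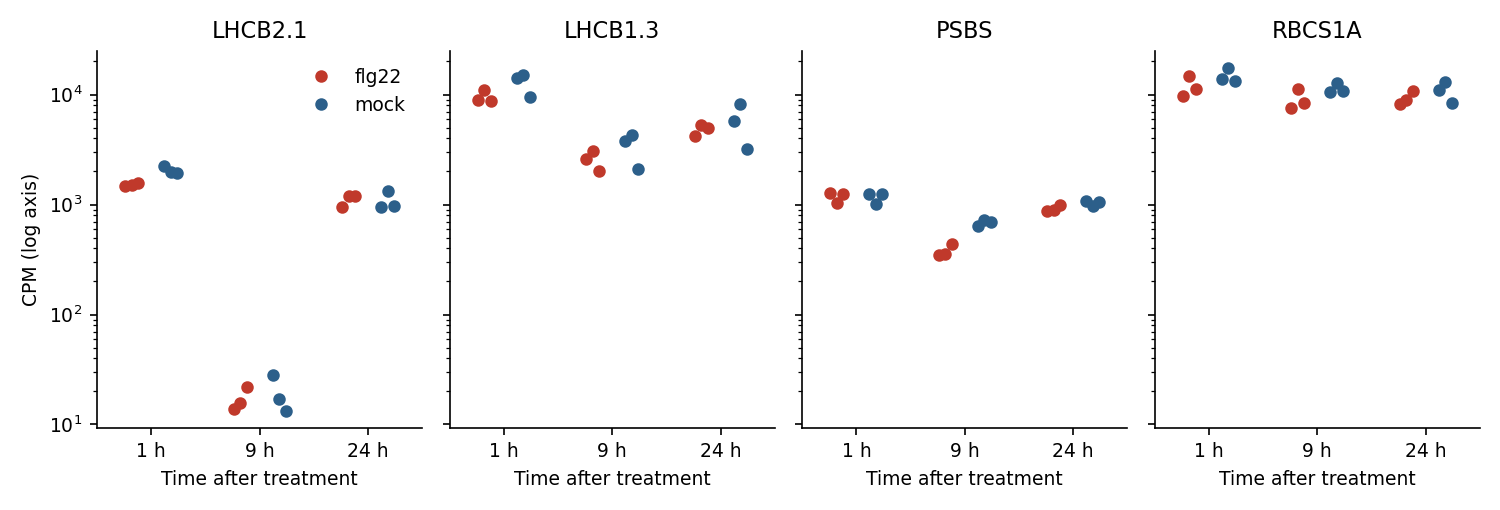
Level of LHCB2.1, LHCB1.3, PSBS and RBCS1A in each Col-0 library at 1, 9 and 24 h, in CPM on a log axis; points are libraries of flg22 and mock seedlings. LHCB2.1 has 13.3 to 27.9 CPM in mock at 9 h, against 1929 CPM or more at 1 h, RBCS1A stays between 7618 and 17492 CPM in the 18 libraries, and the PSBS groups do not overlap at 9 h.

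At 1 h after flg22, most of the 44 genes had slightly lower values, and 1 passed the test. The median log2 fold change was -0.35, against -0.09 for all genes, and 42 of 44 values were negative. RBCS1B had 442, 440 and 564 CPM with flg22, against 618, 773 and 835 CPM in mock, and was the gene called (-0.62, SE 0.15, adjusted P = 0.00349). That is 1 of 44 (2.27%) where 9.21% of all genes were called lower. Without replicate 1 its adjusted P was 0.0603, without replicate 2 it was 0.0519, without the replicate block 0.0131, and without the 3 libraries with many reads at more than 1 place 0.0157. With flg22, 38 of the 44 (86.4%) were lower in all 3 pairs, as were 37.3% of all genes, and 24 (54.5%) had 3 flg22 values below all 3 mock values, as did 22.7%. At an unadjusted p below 0.05, 21 (47.7%) were lower and 0 higher, against 25.6% lower and 22.1% higher of all genes.

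The families had similar medians at 1 h: -0.44 for LHCB, -0.34 for PSA, -0.33 for LHCA, -0.27 for RBCS and -0.25 for PSB. LHCB2.3 had the lowest value, -0.80 (SE 0.29, adjusted P = 0.037), with 396, 449 and 422 CPM with flg22 and 843, 792 and 589 CPM in mock, groups that do not overlap. LHCA1, an antenna subunit of photosystem I, had 3005, 3746 and 3290 CPM with flg22 and 4751, 4985 and 3971 CPM in mock (-0.45, adjusted P = 0.0534). PSAE1, on the ferredoxin side of photosystem I, had 1266, 1906 and 1254 CPM with flg22 and 1898, 2655 and 1775 CPM in mock (-0.52, adjusted P = 0.0323). Here the replicate 2 libraries were high under both treatments and the groups overlap. PSBX, a small photosystem II subunit, had 1083, 1254 and 1183 CPM with flg22 and 1558, 1820 and 1503 CPM in mock (-0.47, adjusted P = 0.0321). LHCB1.3 had 8903, 11038 and 8755 CPM with flg22, against 14206, 14983 and 9577 CPM in mock, so that mock replicate 3 lay inside the flg22 range (-0.41, adjusted P = 0.135). PSBS, which drives the dissipation of excess light as heat, had 1272, 1037 and 1248 CPM with flg22, against 1242, 1019 and 1239 CPM in mock.

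At 9 h after flg22, 8 of the 44 genes (18.2%) were lower, where 9.92% of all genes were, and none was higher. The median was -0.46, against -0.02 for all genes, and 41 values were negative. The 8 came from every family. PSBS (AT1G44575, chr1:16870221-16873427, plus strand) had 349, 352 and 439 CPM with flg22, against 632, 720 and 701 CPM in mock, the lowest value of the 44 (-0.86, SE 0.13, adjusted P = 0.000127). The groups do not overlap, and without replicate 1 the adjusted P was 0.0153. PSAH2, a subunit on the side of photosystem I where LHCII docks, averaged 142 ± 18.8 CPM with flg22 and 232 ± 14.5 CPM in mock (-0.71, adjusted P = 0.000595). PSAF, the plastocyanin-docking subunit, averaged 730 ± 144 CPM with flg22 and 1050 ± 68.4 CPM in mock (-0.54, adjusted P = 0.00624).

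The antenna genes called at 9 h were LHCB3, LHCB6 and LHCA3. LHCB3 had 128, 105 and 139 CPM with flg22, against 245, 207 and 173 CPM in mock (-0.75, adjusted P = 0.00465). LHCB6, the gene of the minor antenna protein CP24, had 206, 258 and 252 CPM with flg22, against 417, 418 and 317 CPM in mock (-0.69, adjusted P = 0.00662). LHCA3 had a mean of 537 ± 81.2 CPM with flg22 and 777 ± 53.8 CPM in mock (-0.53, adjusted P = 0.00717). In these 3 genes no flg22 library reached the lowest mock library. The Rubisco genes called were RBCS1B, with 927 ± 146 CPM after flg22 and 1361 ± 123 CPM in mock (-0.57, adjusted P = 0.0066), and RBCS3B, with 1308 ± 349 CPM after flg22 and 1935 ± 354 CPM in mock (-0.57, adjusted P = 0.00823). The RBCS3B groups overlap, and the gene was lower within each of the 3 pairs.

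Several abundant genes missed the threshold at 9 h. LHCA4 had 386, 364 and 468 CPM with flg22, against 587, 555 and 615 CPM in mock (-0.53, adjusted P = 0.0113), with no overlap. RBCS1A had 7618, 11227 and 8308 CPM with flg22, against 10490, 12840 and 10888 CPM in mock (-0.35, adjusted P = 0.127). PSBO1, the main oxygen-evolving complex protein, had 1114, 1464 and 1344 CPM with flg22, against 1691, 1797 and 1765 CPM in mock (-0.43, adjusted P = 0.0722). LHCB2.1 was at 13.8, 15.7 and 21.9 CPM with flg22 and 27.9, 17.0 and 13.3 CPM in mock, values that overlap. The values of 3 genes were not negative: LHCB1.4 (0.30), LHCB4.3 (0.25) and PSBR (0.01). In all, 34 genes (77.3%) were lower in each pair, where 34.8% of all genes were, and 22 (50%) had all flg22 values below all mock values, where 20.3% did. At an unadjusted p below 0.05, 29 (65.9%) were lower, where 23.1% of all genes were.

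The number called at 9 h depended on the libraries and the fit. Dropping replicate 1, 2 or 3 left 0, 1 and 13 calls. Without the replicate block it was 3, without the 3 libraries with many multiply placed reads 14, and with DESeq2 17. The shares of all genes called in these fits are not given here, so whether the members or all genes shifted cannot be told. Of 12 root genes taken as a list, 6 were lower at 9 h, where 9.92% of all genes were. They were PLT1 (-1.58), EXP7 (-1.53), COBL9 (-1.43), WER (-1.31), PIN2 (-0.85) and PYK10 (-0.80). The summed level of the 12 was 1503 to 1934 CPM with flg22 and 2690 to 2952 CPM in mock, but PYK10, a beta-glucosidase gene, made up 94.4% to 96% of it with flg22 and 96.4% to 96.8% in mock. The other 11 summed to 60.3 to 108 CPM with flg22 and 90.4 to 103 CPM in mock, which overlap. At 1 h the root sums overlapped, at 1756 to 2580 CPM with flg22 and 1848 to 2192 CPM in mock, and 0 of the 12 were called, against 1 at 24 h (COBL9, -2.08). All 12 root genes were detected in every Col-0 library. The part of tissue proportions in the result at 9 h was not tested.

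At 24 h after flg22, none of the 44 was called by edgeR, where 2.63% of all genes were called lower and 11.7% in either direction. At an unadjusted p below 0.05, 2 were higher and 0 lower, beside 17.9% and 14.9% of all genes, and the counts called by DESeq2 and limma-voom were 1 and 0. The median was 0.02, against -0.03 for all genes, and 21 values were negative. The median within each pair was -0.10, -0.28 and 0.47, so the pairs did not move together. Over all genes tested, the deviations of flg22 and mock libraries from their group means correlated by only 0.07, 0.09 and -0.08 in these pairs. LHCB2.3 had the lowest value (-0.35, adjusted P = 0.438), with 145, 294 and 231 CPM after flg22 and 232, 522 and 150 CPM in mock. Mock replicate 2 was the high library in this and in many other members, and it is the library with 42.8% of reads at more than 1 place. LHCB4.3 had the highest (0.65, SE 0.18, adjusted P = 0.0192), with 12.5, 14 and 23.8 CPM after flg22 and 10.9, 8.85 and 10.9 CPM in mock. Its groups do not overlap.

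The extremes of the other families at 24 h were small and their groups overlapped. LHCA4 had 2128, 2639 and 2427 CPM with flg22 and 1870, 2575 and 2039 CPM in mock (0.15). PSAK had 848, 1001 and 1159 CPM with flg22 and 1027, 1953 and 818 CPM in mock (-0.28). PSAD2 (AT1G03130), part of the ferredoxin docking site, had 325, 448 and 438 CPM with flg22 and 250, 430 and 311 CPM in mock (0.30, adjusted P = 0.161). PSBS had 867, 900 and 995 CPM with flg22 and 1084, 974 and 1051 CPM in mock (-0.17). RBCS1B had 819, 808 and 1019 CPM with flg22 and 994, 1099 and 951 CPM in mock (-0.21), while RBCS2B had 665, 881 and 1061 CPM with flg22 and 548, 731 and 765 CPM in mock (0.34, adjusted P = 0.143). No member was a DEG at any of the 3 times.

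**Figure D3:**
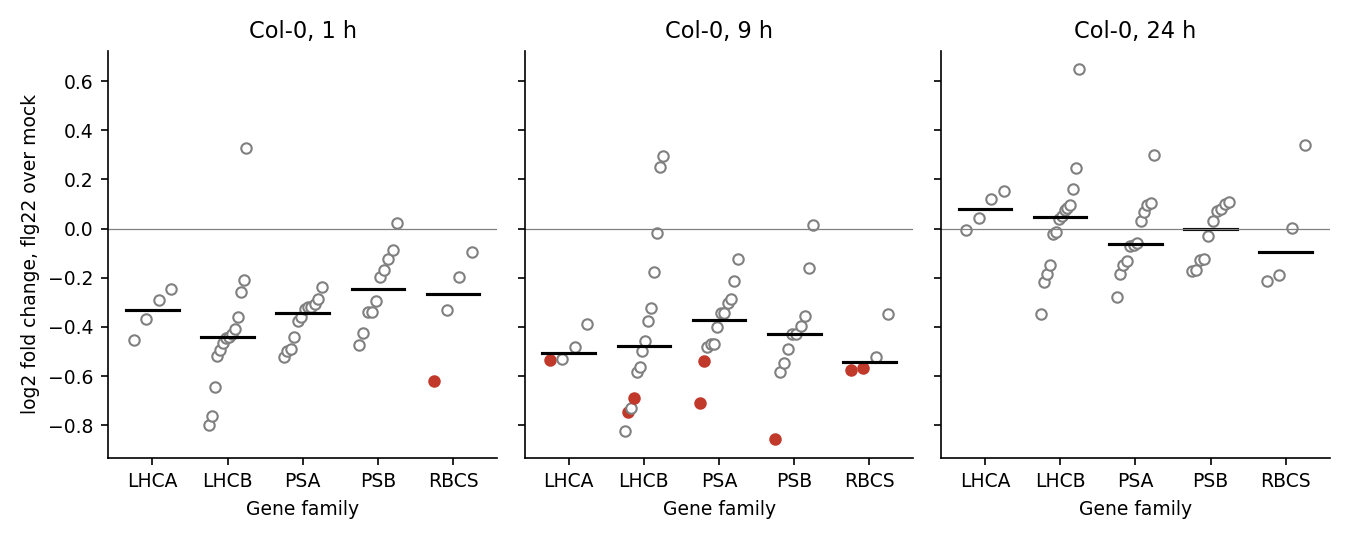
Log2 fold change of flg22 over mock for each of the 44 genes in Col-0, by family, at 1, 9 and 24 h; each point is a gene, filled red where adjusted P is below 0.01, and the short line is the family median. The 9 h points include the 8 called genes, lowest PSBS at -0.86, and the 24 h medians lie between -0.09 and 0.08.

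The effects at different times were compared directly. PSBS was the only member whose effect at 9 h differed from that at 1 h (difference -0.88, SE 0.19, adjusted P = 0.0048), where 6.12% of all genes differed. The call was lost when any 1 replicate was left out, with adjusted P from 0.0191 to 0.125. The effect at 24 h minus that at 1 h had a median of 0.41 over the 44, with 10 (22.7%) at an unadjusted p below 0.05, all positive, where 11.3% of all genes were positive and 13.1% negative at that level. None passed the adjusted threshold in edgeR, DESeq2 or limma-voom (smallest adjusted P in edgeR 0.0529), and 3.84% of all genes did in edgeR. For 24 h minus 9 h the median was 0.45, with 17 (38.6%) at an unadjusted p below 0.05, all positive, where 8.74% of all genes were positive and 6.61% negative. Here edgeR and limma-voom called 0 and DESeq2 4, beside 0.217% of all genes in edgeR (smallest adjusted P of the members 0.0467). The 3 differences share libraries with each other.

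Other genes of the chloroplast were examined as lists. Beside these and the lists that follow, 9.21% of all genes tested in Col-0 were called lower at 1 h, 9.92% at 9 h and 2.63% at 24 h. Of 13 genes of chlorophyll synthesis, 3 were lower at 1 h: GUN4 (-0.91), CAO (-0.83) and CHLM (-0.58). At 9 h 6 were lower, with DVR (-1.16), CHLH (-0.92) and PORC (-0.84) the lowest, and the median of the list was -0.59. GUN4 and CHLH act at the magnesium step into chlorophyll and CAO makes chlorophyll b, the pigment that antenna proteins carry. Of 15 Calvin cycle genes, 0 were called at 1 h and 5 were lower at 9 h, among them GAPB (-0.70), FBA1 (-0.69) and CFBP1 (-0.69). Of 11 genes of electron transport and ATP synthase, PETE1, a plastocyanin, was lower at 1 h (-0.77) and FNR2, a ferredoxin-NADP reductase, at 9 h (-0.62). Of 10 chlorophyll breakdown genes, CLH2 was lower at 1 h (-1.16), 3 were higher at 9 h (CLH2 1.19, SGR1 0.82 and PPH 0.71) and RCCR was lower (-0.44). At 24 h 0 of the synthesis, electron transport and breakdown genes were called, and 1 Calvin cycle gene, CP12-2, was higher (0.60).

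Of 12 regulators of photosynthesis genes, PIF1 (-1.29) and PIF4 (-0.93) were lower at 1 h, and PIF4 (-1.20) and GNC (-1.06) at 9 h. At 24 h PIF1 was lower (-0.63). PIF proteins are phytochrome-interacting factors that restrain greening, and GNC is a GATA factor that promotes it. The clock gene TOC1 was higher at 1 h (1.28). In mock at 9 h against 1 h, the clock genes CCA1 (-6.94) and LHY (-6.96) were lower and ELF4 (8.0) and TOC1 (3.01) higher. Among the regulators ELIP2 (-3.64), the antenna activator GLK2 (-3.18) and PIF4 (-2.65) had the largest changes there.

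In the accessions other than Col-0 the share of counts on the 44 genes was lower with flg22 than with mock at 1 h in 15 of 15 pairs. The mean share was 7.10% with flg22 and 11.5% in mock in Can-0, 9.43% with flg22 and 11.8% in mock in Gy-0, and 8.95% with flg22 and 10.8% in mock in Kn-0. In Kon it was 7.47% with flg22 and 11% in mock, and in No-0 11.1% with flg22 and 15.6% in mock. How much of this stood as lower fold changes depended on the scaling. TMM factors were 0.751 to 1.07 in flg22 and 0.834 to 1.3 in mock libraries, and without them the median of all genes was -0.15 in Can-0, -0.30 in Gy-0, -0.31 in Kn-0, -0.49 in Kon and -0.49 in No-0, against -0.06 to -0.02 with them. Relative to the median of all genes, the 44 stood at -0.54 in Can-0, 0.01 in Gy-0, 0.03 in Kn-0, 0.07 in Kon and 0.02 in No-0. A factor scales all genes of a library alike, so it leaves these differences nearly unchanged by construction. In Col-0 at 1 h the difference was -0.26.

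Can-0 had the most calls. With TMM factors, 40 of 44 genes (90.9%) were lower, where 11.9% of all genes tested there were, and the median was -0.58. The 4 DEGs were LHCB4.2 (-1.42), LHCB2.1 (-1.12), LHCB1.4 (-1.06) and LHCB2.2 (-1.05), all genes of photosystem II antennae, and the LHCB median was -0.86. Not called were PSBS (-0.32), RBCS1A (-0.28), PSAF (-0.18) and LHCB4.3 (-0.05). LHCB1.3 had 10054, 6134 and 14671 CPM with flg22, against 14445, 9050 and 20728 CPM in mock, with replicate 2 low and replicate 3 high under both treatments. All flg22 values lay below all mock values for 2 genes (4.55%), where they did for 13.1% of all genes, while 42 (95.5%) were lower in each of the 3 pairs, where 36.6% of all genes were. Without the replicate block 0 were called, and the count was 13 without replicate 3.

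In the other accessions few members were called. Gy-0 had 5 of 44 lower (11.4%), beside 13.6% of all genes: LHCB4.2 (-0.61), LHCB2.3 (-0.55), LHCB2.2 (-0.39), PSAD2 (-0.37) and LHCB2.1 (-0.32). Kon had 4 lower (9.09%), beside 13.2%: LHCB4.2 (-1.12), LHCB2.2 (-0.66), LHCB1.5 (-0.61) and PSAD2 (-0.54). No-0 had 7 lower (15.9%), beside 15.5%, led by LHCB4.2 (-0.98), LHCB2.3 (-0.84) and PSAD2 (-0.69). It also had 2 higher, LHCB4.3 (0.55) and RBCS3B (0.48), beside 20.9% of all genes. Kn-0 had 0 called by edgeR, DESeq2 or limma-voom, beside 1.86% of all genes called lower in edgeR, and 4 members lower and 1 higher at an unadjusted p below 0.05, where 16.4% and 20% of all genes were. Without the replicate block the counts in Gy-0, Kon and No-0 were 0. With library sizes alone the lower counts were 41 in Can-0, 27 in Gy-0, 5 in Kn-0, 21 in Kon and 30 in No-0, with 0 higher. The shares of all genes called lower with that scaling were 17.1% in Can-0, 29.8% in Gy-0, 6.63% in Kn-0, 36.7% in Kon and 41.6% in No-0.

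In these 4 accessions LHCB medians were below PSA medians. PSA medians with TMM factors were 0.11 in Gy-0, 0.15 in Kn-0, 0.12 in Kon and 0.11 in No-0, and LHCB medians -0.18, -0.08, -0.31 and -0.31 in the same accessions. With library sizes alone the PSA medians were -0.17, -0.13, -0.31 and -0.33 and the LHCB medians -0.46, -0.36, -0.74 and -0.75, so that the sign of the PSA values depended on the scaling. LHCB2.2, LHCB4.2 and PSAD2 were called lower in 4 of the 5 accessions, LHCB2.1 and LHCB2.3 in 3, and LHCA4, LHCB1.4 and LHCB1.5 in 2. Another 32 were called in 1, and PSAF, PSBS, RBCS1A and LHCB4.3 in 0. Calls in 4 or more accessions were thus made for 3 members (6.82%), where they were for 5.46% of the 18552 genes tested in all 5, in 3 or more for 5 (11.4%), where they were for 9.97%, and in 2 or more for 8 (18.2%), where they were for 15.4%.

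**Figure D4:**
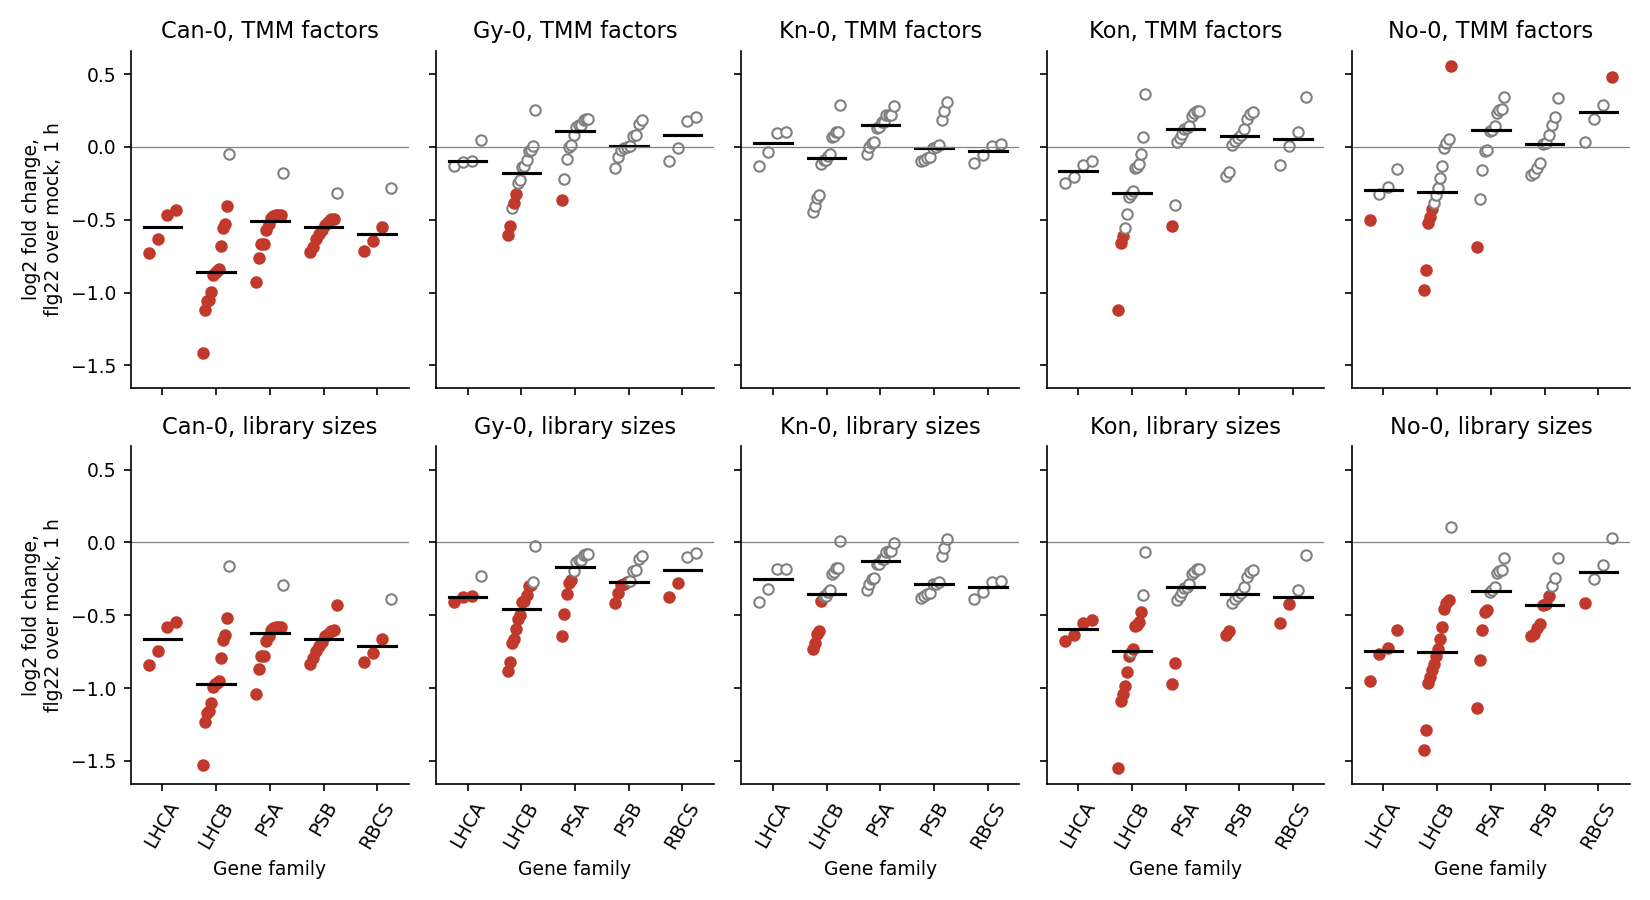
Log2 fold change of flg22 over mock at 1 h for the 44 genes in the 5 accessions other than Col-0, by family, with TMM factors (top) and with library sizes only (bottom). Each point is a gene, filled red where adjusted P is below 0.01; with TMM factors 40 genes are called lower in Can-0 and 0 in Kn-0, and with library sizes 41 and 5.

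LHCB4.2, one of 3 genes for the CP29 protein that links LHCII trimers to photosystem II, had the lowest log2 fold change of the 44 in each of the 5 accessions. This rank held with either scaling, but a scaling factor moves all genes of a library alike. The gene lies at chr3:2717557-2718923 on the plus strand. In Can-0 it had 901, 311 and 1066 CPM with flg22, against 1929, 1091 and 2701 CPM in mock (-1.42, SE 0.13, adjusted P = 8.77e-05). In Kon it had 535, 574 and 925 CPM with flg22, against 1193, 1144 and 2139 CPM in mock (-1.12, SE 0.14, adjusted P = 0.000115). No flg22 library of these accessions reached the lowest mock library. In No-0 it had 1232, 867 and 1344 CPM with flg22, against 2049, 2153 and 2501 CPM in mock (-0.98, SE 0.14, adjusted P = 2.07e-08). In Gy-0 it had 812, 933 and 1650 CPM with flg22, against 1287, 1387 and 2474 CPM in mock (-0.61, SE 0.07, adjusted P = 2.92e-05). Kn-0 had 1359, 755 and 915 CPM with flg22, against 1863, 877 and 1461 CPM in mock (-0.45, adjusted P = 0.0392). The gene was lower in 15 of 15 pairs, and the groups overlap in Gy-0 and Kn-0 alone. These calls held when any 1 replicate was left out and were lost without the replicate block. In Col-0 at 1 h, which was sequenced with other reads, LHCB4.2 ranked 8th. It had 1261, 1304 and 1315 CPM after flg22, against 1940, 1915 and 1591 CPM in mock (-0.50, adjusted P = 0.038).

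**Figure D5:**
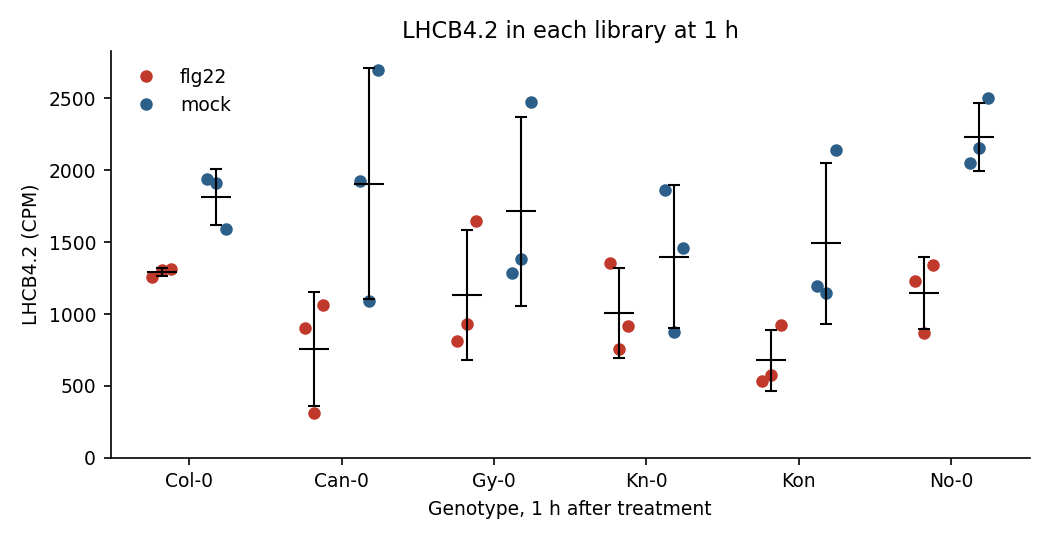
Level of LHCB4.2 at 1 h in Col-0 and in 5 accessions, in CPM; points are libraries, with flg22 left of mock, and bars are the mean ± SD of 3. The means are 759 CPM with flg22 and 1907 CPM in mock in Can-0, and 1148 CPM with flg22 and 2234 CPM in mock in No-0.

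Whether the effect differed between accessions was tested in a single fit of the 30 libraries. No member passed in edgeR, DESeq2 or limma-voom (0 at an unadjusted p below 0.05), and 0.375% of all genes did in edgeR. Can-0 against the mean of the other 4 had a median difference of -0.56 over the 44, against -0.0047 for all genes, but 0 were called by edgeR, DESeq2 or limma-voom, 1 had an unadjusted p below 0.05 and the smallest adjusted P was 0.601. In edgeR 0.02% of all genes were called lower there. This fit had no replicate block.

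In a fit with a replicate block within each accession, added after seeing the data, the effect in Can-0 was lower than the mean of the other 4 for 13 members (29.5%), where 1.98% of all genes were called lower. The median difference of the 44 was -0.59. PSAN, a lumenal subunit of photosystem I, had the lowest difference of those called (-0.83, SE 0.16, adjusted P = 0.00633), followed by RBCS3B (-0.79, SE 0.15, adjusted P = 0.00537) and the LHCII gene LHCB1.1 (-0.79, SE 0.14, adjusted P = 0.00346). The other genes called were LHCB2.1, LHCB2.2, LHCB6, PSAE1, PSAG, PSAH2, PSAK, PSAL, PSBR and PSBW. The median log2 ratio of the 44 within a pair, with TMM factors, was -0.63 to -0.51 in the 3 pairs of Can-0. In the 12 pairs of the other accessions it was -0.29 to 0.27, which does not overlap the Can-0 range. These ranges without TMM factors, and those of all genes, are not given here, so the separation is shown for that scaling alone. In limma-voom the count was 25 (56.8%), where 3.32% of all genes were called lower. Without TMM factors it was 4 (9.09%), where 0.521% were. In edgeR with TMM factors it was 0 when any 1 replicate was left out (smallest adjusted P 0.0189 to 0.046). Of all genes, 0.0551%, 0.05% and 0.11% were called lower without replicate 1, 2 and 3. The median differences of the 44 were then -0.71, -0.44 and -0.59, against -0.02, -0.004 and 0.005 for all genes. In the test among all 5 accessions RBCS3B and LHCB1.1 passed (adjusted P = 0.00913 and 0.00943), where 4.2% of all genes did. The calls of a different effect in Can-0 thus depended on the block and on all 3 replicates. The median difference stayed negative with any 1 replicate left out.

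In mock seedlings LHCB2.2 and LHCB4.3 differed among the accessions (adjusted P = 0.00872 and 0.000157), beside 13% of all genes, and 16 members had an unadjusted p below 0.05. With the replicate block 18 members were called, and the share of all genes called in that fit is not given here. LHCB4.3 in Can-0 was 0.95 above the mean of the other 4 on the log2 scale and in Gy-0 1.22 below it, and the mock means were 30.6 ± 11.5 CPM in Can-0 and 9.81 ± 2.92 CPM in Gy-0. LHCB2.2 was 1.07 above the mean of the others in No-0, at 4048 ± 84.1 CPM. Over the 44 the median difference of No-0 from the mean of the other 4 was 0.66, against -0.04 for all genes, with 37 at an unadjusted p below 0.05. The shares of all genes at that p are not given here. The summed level of the root genes in mock averaged 1139 ± 417 CPM in No-0 and 1710 to 2147 CPM in the others, with libraries that overlap. The part of tissue proportions in this difference was not tested.

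Genes of 2 lists were called lower in all 5 accessions at 1 h, as were 1.38% of the 18552 genes tested in all 5. CAO was lower by -1.62 to -2.05 and GUN4 by -1.47 to -2.56 on the log2 scale, each called in every accession. Of the 12 regulators, GLK2, GNC, PIF1, PIF3 and PIF4 were called lower in each of the 5, with GLK2 from -1.20 in Kn-0 to -2.22 in Kon. Chlorophyll synthesis genes called lower numbered 12 of 13 in No-0, 7 in Gy-0, 5 in Can-0, 4 in Kon and 2 in Kn-0. Of all genes tested, the shares called lower were 15.5% in No-0, 13.6% in Gy-0, 11.9% in Can-0, 13.2% in Kon and 1.86% in Kn-0.

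In the 3 other species, 1:1 orthologs were at hand for 3 of the 44 genes: PSBP1, PSAO and LHCB6. The ortholog list used here, with 1709 genes, is a small part of the study's list, so the other members were not analysed in these species. PSBP1 is a lumenal protein of the oxygen-evolving complex, and PSAO a photosystem I subunit on its LHCII-binding side. The LHCB6 ortholog listed for C. hirsuta had 0 counts in all 18 libraries and was not tested there. No ortholog was called at any time in edgeR. In limma-voom 0 were called in any species, and in DESeq2 1, in C. rubella. The share of all genes called was 29.3%, 2.69% and 12.1% in C. rubella at 1, 9 and 24 h, 22.6%, 12.2% and 1.78% in C. hirsuta, and 23.8%, 3.63% and 4.78% in E. salsugineum.

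The values were negative in all 3 species at 1 and 9 h. At 1 h the 8 tested orthologs lay between -0.26 and -0.49, each lower in all 3 pairs. At 9 h PSAO in C. rubella had 408, 479 and 467 CPM with flg22, against 997, 833 and 743 CPM in mock (-0.92, SE 0.25, adjusted P = 0.0328). PSBP1 in C. hirsuta had 492, 469 and 651 CPM with flg22, against 1058, 958 and 976 CPM in mock (-0.92, SE 0.31, adjusted P = 0.0387). In both the groups lie apart. LHCB6 in C. rubella had 342, 419 and 401 CPM with flg22, against 752, 876 and 627 CPM in mock (-0.96, adjusted P = 0.06). E. salsugineum had smaller values: PSBP1 -0.48, LHCB6 -0.44 and PSAO -0.17. In Col-0 at 9 h these 3 genes were at -0.55 (PSBP1), -0.69 (LHCB6) and -0.40 (PSAO). Of the 8 tests at 9 h, 6 had an unadjusted p below 0.05, against 1 at 24 h and 0 at 1 h. These 8 tests are the same 3 genes repeated over species. The shares of all genes at that p, or lower in all 3 pairs, are not given for these species. Whether the 3 genes stand out from other genes there was not tested.

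At 24 h the values were -0.51 (PSBP1), -0.53 (PSAO) and -0.42 (LHCB6) in C. rubella, -0.24 (PSBP1) and -0.17 (PSAO) in C. hirsuta, and 0.10 (PSBP1), 0.38 (PSAO) and 0.17 (LHCB6) in E. salsugineum. Whether the effect differed among the 4 species was tested over 1555 orthologs of that partial list, and none of the 3 genes passed at 1, 9 or 24 h (smallest adjusted P = 0.581, for PSAO at 9 h), where 17.3%, 2.89% and 1.16% of the orthologs did. DESeq2 and limma-voom also called 0 of the 3. The joint value of LHCB6 includes the C. hirsuta libraries at 0. In mock at 9 h against 1 h, LHCB6 was lower in C. rubella (-1.80) and E. salsugineum (-1.20), and PSAO in C. rubella (-1.08) and E. salsugineum (-1.0). Not called were PSAO in C. hirsuta (-1.14, adjusted P = 0.032) and PSBP1 in any of the 3 species. PSBP1 had -0.70 in C. rubella, -0.58 in E. salsugineum and -0.77 in C. hirsuta (adjusted P = 0.0684, 0.0632 and 0.101). Genes called in either direction numbered 2580 of 19750 tested for C. rubella, 2928 of 19834 for E. salsugineum and 1986 of 20866 for C. hirsuta.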

How the data were processed

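Per the labels and the study's methods, the authors sequenced strand-specific mRNA libraries, trimmed reads with cutadapt 1.5, mapped them with TopHat2 to each species' reference genome and, with HTSeq 0.6.0, made the deposited counts of reads per gene, which are whole numbers with no normalization. Base calling used CASAVA 1.8.2, and the Col-0 build was TAIR 10. For the accessions the study mapped reads to the Col-0 genome and, as a check, to genomes corrected for each accession's single-base differences, and which of these the deposited accession counts come from is not given in the sources used here. Lines of those tables that name no gene (no feature, ambiguous, not unique) were left out, at 12.2% to 50.0% of all lines' counts in the 4-species tables and 7.11% to 10.4% in the accession tables.

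Counts were analysed in edgeR 4.0.16 (R 4.3.3): genes averaging 10 counts or more per library were kept, TMM factors were computed, and a quasi-likelihood model was fitted per genotype over its libraries (18 per species, 6 per accession) with the replicate as a block, as the study's individual analyses did. Joint fits of accessions or species had no block. The pairing comes from the study's design, in which each replicate was 1 experiment. Deviations of flg22 and mock libraries with the same number correlated above 0.1 in 46 of 51 pairs (median 0.41, lowest -0.08), in 6 of 9 in Col-0 and 15 of 15 in the accessions. The Col-0 pairs at 24 h had 0.07, 0.09 and -0.08. P-values were adjusted over all genes tested, and calls used 0.01. Alternatives were RLE factors, DESeq2 1.42.0, limma-voom (limma 3.58.1), no filter, no block, other scalings, a threshold of 0.05 and each replicate left out. Fits without TMM factors, with a block within each accession or species, and without the 3 Col-0 libraries with over 25% of reads at more than 1 place were added after seeing the data. Scripts were tested on simulated data.

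Members and lists were chosen with earlier results of these data known. All 44 may be named. Libraries are given for the gene with the highest mean CPM, the lowest and highest at 24 h and the lowest at 1 h in each family, for genes with orthologs, and for others a result rests on. From each other list the 3 called genes with the largest change are named, and those called in every accession were named after seeing their values. Exon lengths, positions and sequences came from the RefSeq annotation of TAIR10.1. Upstream windows were 250 bases long. Depth sets counting error only, and 0 columns of per-sample values went unused.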

Additional observations from a re-analysis of the deposited data

Results flagged for a closer look

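The flg22 effect on PSBS in Col-0 at 9 h differed from that at 1 h by -0.88 on the log2 scale (SE 0.19, adjusted P = 0.0048, edgeR's quasi-likelihood test). Its fold change was -0.86 at 9 h and 0.02 at 1 h, and it was lower in all 3 pairs at 9 h. Leaving out replicate 1, 2 or 3 gave differences of -0.88, -0.78 and -1.01 with adjusted P of 0.125, 0.0735 and 0.0191. Without the 3 libraries with many reads at more than 1 place the difference was -0.84 (adjusted P = 0.0123). With a replicate block within each accession, 13 members had a lower flg22 effect in Can-0 than the mean of the other 4 accessions and 2 differed among the 5, against 0 in both tests without the block. Both counts were 0 when any 1 replicate was left out. In those fits at most 0.11% of all genes were called lower in Can-0, and at most 0.939% differed among the 5.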

How the results depend on the processing

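Of 7172 values of single genes under alternatives, 6465 kept their sign and their side of the threshold, 297 changed sign with no call under either setting, 223 lost a call, 179 gained one and 8 changed sign with a call. Library sizes without TMM factors gave 90 of the 305 changes of sign. The 8 turned negative when library sizes were used without TMM factors: LHCB1.3 (-0.40), LHCB4.1 (-0.42), PSBO1 (-0.37), PSBO2 (-0.43), PSBQ1 (-0.42) and RBCS1B (-0.41) in No-0, PSAF in Gy-0 (-0.26) and RBCS1A in Kon (-0.43).

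Without the replicate block, members called were 0 in Can-0, Gy-0, Kon and No-0, 0 in Col-0 at 1 h, 3 at 9 h and 0 for the difference of 9 h and 1 h. With the block, the mock test among accessions called 18. With a block within each accession, added after seeing the data, 13 differed in Can-0 from the other 4 and 2 among the 5. The block moved no other count of calls by over 1.5 times.

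Without TMM factors the counts were 3 in Col-0 at 1 h, 21 at 9 h, 27 in Gy-0, 5 in Kn-0, 21 in Kon, 30 in No-0, 1 in the mock test among accessions and 1 ortholog in E. salsugineum. RLE factors gave 2 in Kon and 1 in the mock test. DESeq2 gave 17 at 9 h, 1 at 24 h, 4 for 24 h minus 9 h, 4 in the mock test and 1 ortholog in C. rubella; limma-voom gave 13 at 9 h and 1 in the mock test. Without the filter Gy-0 had 8, and with members and organelle genes left out of the scaling the mock test had 1. Fits of the compared times alone gave 3 at 1 h, 5 at 9 h, 2 for their difference, and 2 orthologs in C. hirsuta and 1 in E. salsugineum. Without the 3 Col-0 libraries with many multiply placed reads there were 0 at 1 h, 14 at 9 h and 0 for their difference. A threshold of 0.05 gave 8 at 1 h, 22 at 9 h, 1 at 24 h, 1 for 24 h minus 9 h, 9 in Gy-0, 1 in Kn-0, 15 in No-0, 5 in the mock test, and 1 ortholog each in C. hirsuta and C. rubella.

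Leaving out 1 replicate gave 13 to 38 in Can-0 (13 without replicate 3), 3 to 7 in Gy-0, 0 to 3 in Kn-0 (3 without replicate 2), 1 to 5 in Kon (1 without replicate 1), 3 to 15 in No-0 (3 without replicate 1, 15 without replicate 2), 0 to 1 in Col-0 at 1 h, 0 to 13 at 9 h, 0 to 0 for their difference, 16 to 35 for mock at 24 h against 1 h, 30 to 40 for mock at 9 h against 1 h and 0 to 1 in the mock test among accessions. Fewer samples were fitted there, and the cause of the other shifts was not tested. For most alternatives in this section the share of all genes called is not given, so whether the members or all genes shifted cannot be told.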
